A study of Homo sapiens with 12 samples.

Results

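Replication-dependent histone genes code for the core and linker histones that package newly copied DNA, and this account follows the acetylated chromatin around them in human pancreatic ductal adenocarcinoma cell lines. Members were the RefSeq protein-coding genes (GRCh38) on chr1 or chr6 whose symbol is H1- plus a number, or H2AC, H2BC, H3C or H4C plus a number. That rule found 68 of 19974 protein-coding genes: 6 H1, 17 H2A, 18 H2B, 13 H3 and 14 H4 genes. The measurement was ChIP-seq of H3K27ac, the acetylation of lysine 27 of histone H3 that marks active promoters and enhancers, deposited as 1 list of called peaks for each of 12 libraries. There were 6 groups of 2 libraries. MiaPaCa2 cells, grown in DMEM, were treated with IFNβ, an antiviral cytokine (1000 U/ml for 2 h), or left untreated. CFPAC1 cells, grown in IMDM, were likewise treated with IFNβ (1000 U/ml for 2 h) or left untreated. IRF1KO clones were CFPAC1 lines grown out by dilution after infection with a lentiCRIPSv2 plasmid (spelled so in the labels) that carries wt Cas9 and a guide RNA against IRF1, an interferon-induced transcription factor. WT clones were grown out in the same way from CFPAC1 cells infected with lentiCRIPSv2, with no guide named. Each of these 4 libraries is labelled as a clone, 2 per group, with no IFNβ named. The 4 MiaPaCa2 libraries are of bulk cells, and the 8 CFPAC1 libraries are 4 of bulk cells and 4 of clones. Both media held fetal bovine serum, L-glutamine and Pen/Strep. Line and growth medium cannot be told apart in this design, and nothing says that the 2 bulk libraries of a group came from separate cultures, so p-values measure the spread between these libraries.

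In dividing cells these genes are switched on as DNA replication begins, because new chromatin needs histones in step with new DNA. They lie in clusters, mostly lack introns, and give mRNAs that end in a conserved stem-loop in place of a poly(A) tail. The factor NPAT, a target of cyclin E and its kinase, gathers at the clusters in nuclear bodies and activates transcription, with the H4 promoters read by HINFP and many H2B promoters by the octamer-binding factor POU2F1. H2A, H2B, H3 and H4 form the nucleosome core, and H1 histones bind the linker DNA at its entry and exit.

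The 68 members lie in 5 clusters, taken as runs of members less than 500 kb apart. The largest holds 34 members at chr6:25726063-26285534, and 5 more lie at chr6:27132316-27147562 and 16 at chr6:27807479-27893891. On chromosome 1, 11 members lie at chr1:149782689-149887965 and 2 (H2AC25 and H2BC26) at chr1:228457364-228458558. The value followed throughout is the covered length: the bp that lie under any peak within 5 kb of either end of the gene. Most members are so short and so close together that 67 of 68 share part of this window with another member, at the median with 3 and at most with 5 others; only H4C8 has a window of its own. Their values are therefore not independent, and 19 merged stretches with a total of 395.8 kb hold all of them. Divergent promoters are common among the 63 members with a listed start. There, 13 pairs start back to back with 194 to 979 bp between the starts, 11 of them an H2A with an H2B gene. H2BC7 is counted both with H2AC7 and with H3C4, which is listed with the H2AC7 start.

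Stretches upstream of the start are printed for members of each class and for members whose acetylation, described below, was absent or differed between the lines. They are RefSeq sequence (GRCh38.p14), the last 120 bases before the annotated start, 5′ to 3′ on the gene's strand, read from a table that holds 63 of the 68 members. Capitals mark a TATA box (TATAAA or TATATA). They also mark CCAAT on either strand and the octamer ATTTGCAT on either strand, and overlapping matches run together. First come the members of each class with the highest mean covered length: H1-5 (chr6:27867589-27867708, minus strand), H2AC6 (chr6:26124052-26124171, plus strand), H2BC12 (chr6:27146859-27146978, minus strand), H3C4 (chr6:26199294-26199413, minus strand) and H4C2 (chr6:26027284-26027403, minus strand). The table gives H3C4 the same start as H2AC7, so the H3C4 stretch is also that of H2AC7.
H1-5: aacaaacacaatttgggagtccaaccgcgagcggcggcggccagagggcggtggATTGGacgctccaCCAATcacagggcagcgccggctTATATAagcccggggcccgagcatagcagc
H2AC6: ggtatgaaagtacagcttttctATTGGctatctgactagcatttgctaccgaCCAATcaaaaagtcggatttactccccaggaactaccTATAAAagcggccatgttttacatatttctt
H2BC12: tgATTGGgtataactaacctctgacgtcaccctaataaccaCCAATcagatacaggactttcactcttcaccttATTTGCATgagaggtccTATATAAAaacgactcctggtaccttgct
H3C4: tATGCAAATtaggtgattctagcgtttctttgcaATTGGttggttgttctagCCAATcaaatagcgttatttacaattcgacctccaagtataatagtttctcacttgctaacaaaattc
H4C2: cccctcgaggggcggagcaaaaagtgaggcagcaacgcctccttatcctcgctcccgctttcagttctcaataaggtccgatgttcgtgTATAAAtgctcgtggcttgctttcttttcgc
Then come 3 members with no covered bp in any library: H2AC1 (chr6:25726563-25726682, minus strand) and H2BC1 (chr6:25726657-25726776, plus strand), a divergent testis pair whose stretches overlap, and H2BC18 (chr1:149812371-149812490, minus strand).
H2AC1: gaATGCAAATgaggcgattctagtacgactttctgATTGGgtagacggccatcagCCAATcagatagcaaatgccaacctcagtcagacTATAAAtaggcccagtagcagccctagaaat
H2BC1: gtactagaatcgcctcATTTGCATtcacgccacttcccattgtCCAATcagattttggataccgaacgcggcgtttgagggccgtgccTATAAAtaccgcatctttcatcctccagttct
H2BC18: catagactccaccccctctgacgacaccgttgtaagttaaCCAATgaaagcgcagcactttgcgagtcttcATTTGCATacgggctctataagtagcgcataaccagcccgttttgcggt
Last come 4 members that were chosen after their values were seen, because the area within 1 kb of their ends was marked in 1 line and nearly or wholly bare in the other: H1-1 (chr6:26017788-26017907, minus strand), H1-6 (chr6:26108136-26108255, minus strand), H2BC6 (chr6:26183641-26183760, plus strand) and H3C8 (chr6:26271414-26271533, minus strand).
H1-1: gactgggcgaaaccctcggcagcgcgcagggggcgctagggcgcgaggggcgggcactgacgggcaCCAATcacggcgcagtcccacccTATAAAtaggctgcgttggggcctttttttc
H1-6: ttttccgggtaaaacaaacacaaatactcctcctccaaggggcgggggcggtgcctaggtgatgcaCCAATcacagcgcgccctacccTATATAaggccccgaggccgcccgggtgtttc
H2BC6: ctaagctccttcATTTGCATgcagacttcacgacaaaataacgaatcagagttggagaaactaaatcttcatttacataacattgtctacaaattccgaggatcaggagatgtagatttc
H3C8: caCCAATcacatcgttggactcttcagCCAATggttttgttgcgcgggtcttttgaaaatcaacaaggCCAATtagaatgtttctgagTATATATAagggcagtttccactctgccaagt

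Motifs were searched in the 250 bases before the start. TATAAA or TATATA stood in the last 60 bases, on the gene's strand, in 40 of 63 members (63.5%), against 5.24% of 15813 genes with a promoter in the table. CCAAT, the box that NF-Y binds, stood on either strand in 54 of 63 members (85.7%), against 34.4% of all. All 6 H1, 16 H2A, 18 H2B and 11 H3 promoters in the table had one, and 3 of 12 H4 promoters did. The octamer ATTTGCAT, on either strand, was present in 14 of 18 H2B and 11 of 16 H2A promoters, in 1 of 11 H3 promoters (H3C4, which shares the H2AC7 start) and in none of the H1 and H4 promoters, against 1.66% of all. GGTCC, on either strand, stood in 11 of 12 H4 promoters and in 45.5% of all. The H2AC1, H2BC1 and H2BC18 stretches, of genes without a peak, hold such letters too. A match describes the letters of a window and says nothing of the factor. Members were also compared over the 250 bases before the start, allowing a small shift. H4C14 with H4C15, H3C14 with H3C15 and H2AC18 with H2AC19 were identical over the bases compared. H4C11 with H4C12 matched at 98.0% of positions, so reads of such copies may not be told apart.

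Across libraries the lists held 59896 to 109834 peaks over 63.61 to 94.81 Mb. Sequencing depth is unknown, since the lists give no read counts. The line labels were set against 10 epithelial and 6 mesenchymal genes. All 10 epithelial genes were covered in every CFPAC1 library, whereas EPCAM, CDH1, GRHL2 and ESRP1 were at 0 in every MiaPaCa2 library; the summed covered length was 50434 to 59945 bp in MiaPaCa2 and 65242 to 93481 bp in CFPAC1. Of the mesenchymal genes, 2 of 6 were covered in every MiaPaCa2 library (ZEB2, CDH2, FN1 and SPARC were at 0) and 3 of 6 in every CFPAC1 library, with sums of 16787 to 19416 bp in MiaPaCa2 and 10543 to 23143 bp in CFPAC1. The epithelial sums did not overlap between the lines, and the mesenchymal sums did. A peak list cannot show a guide's indel; IRF1 itself was covered over 8271 and 14027 bp in IRF1KO clones, against 5485 and 6341 bp in WT clones, and was not called (limma adjusted p = 0.272).

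Histone genes had more covered bp than the median gene in every library, and the acetylated stretches around them were longer in MiaPaCa2. Per library, the median member had 8444.5 and 8779.5 covered bp in treated MiaPaCa2 and 8077.5 and 8040 bp in untreated MiaPaCa2. In CFPAC1 the median was 4971.5 and 4679 bp in IRF1KO clones, 5232 and 4772 bp in WT clones, 4480 and 4665 bp in treated cells and 5087 and 5435 bp in untreated cells. The lowest MiaPaCa2 median thus lay above the highest CFPAC1 median, while the median over all genes was 1341 to 1849.5 bp across the 12 libraries. Each library pools many cells, so a shorter covered length and a mark held by fewer cells cannot be told apart.

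The number of members with any peak ran the other way. Within 5 kb, 58 of 68 members (85.3%) were covered in each MiaPaCa2 library and 63 (92.6%) in each CFPAC1 library. Of all genes 64.6% to 67.1% were covered in MiaPaCa2 and 67.8% to 74.5% in CFPAC1, so the share was lower in every MiaPaCa2 library there too. Within 1 kb the share was 79.4% to 80.9% in MiaPaCa2 and 85.3% to 86.8% in CFPAC1, against 59.1% to 67.6% of all genes. The 19 merged stretches were covered over 57.6% to 61.5% in MiaPaCa2, against 34.9% to 40.6% in CFPAC1.

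The difference in length was larger in the flanks than next to the genes. Within 1 kb of the gene ends the median member had 2266 to 2399 bp in MiaPaCa2, against 1929 to 2259 bp in CFPAC1. Between 1 and 5 kb from the ends the median was 5815.5 to 6282 bp in MiaPaCa2, against 2652.5 to 3289.5 bp in CFPAC1, and 190 to 542 bp over all genes. In the near window, over 90% of the bp were covered in all 4 MiaPaCa2 libraries for 32 members, and in all 8 CFPAC1 libraries for 12. In the 5 kb window the same held for 20 members in MiaPaCa2 and for none in CFPAC1. A window that is already full cannot gain, so the scale is capped for those members.

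**Figure D1:**
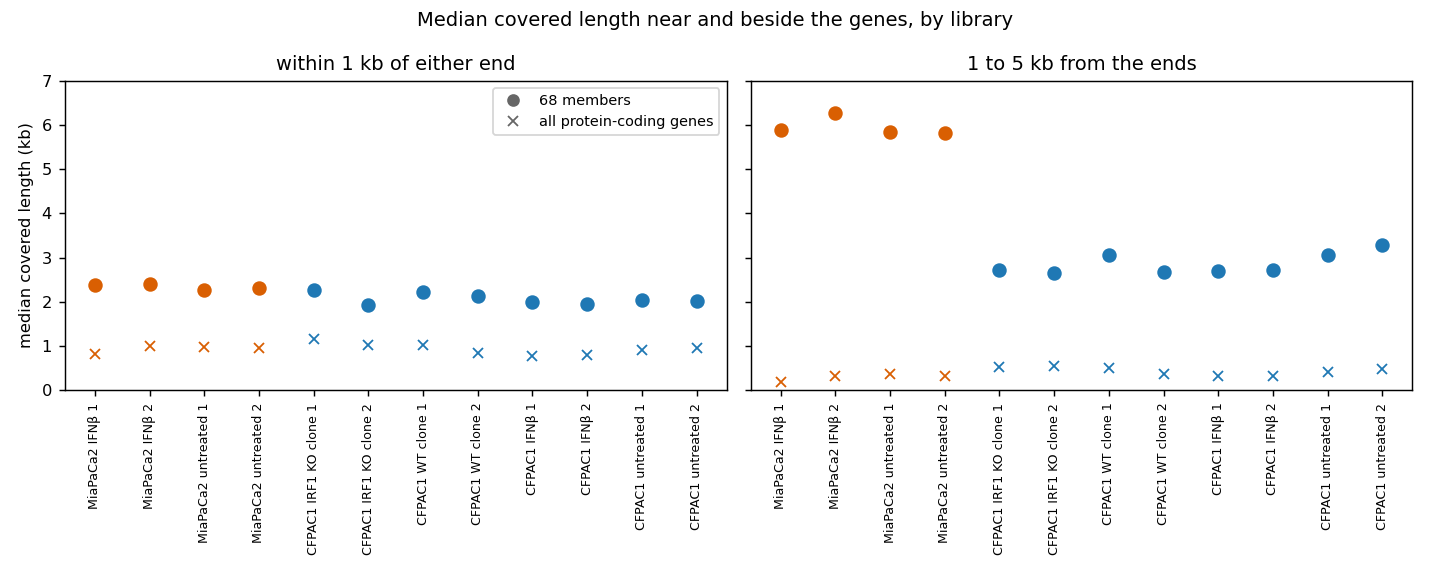
Median covered length (kb) of the 68 histone genes (dots) and of all protein-coding genes (crosses) in each library, within 1 kb of the gene ends (left panel) and 1 to 5 kb from them (right panel), with MiaPaCa2 (orange) left of CFPAC1 (blue). The near values lie close together (2266 to 2399 bp in MiaPaCa2, 1929 to 2259 bp in CFPAC1), while the flank values lie apart (5815.5 to 6282 bp in MiaPaCa2, 2652.5 to 3289.5 bp in CFPAC1).

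Shares were set out by distance from the start, for the 63 members whose start the promoter table gives. The lines were close together 500 bp after the start and apart at 4 kb on either side. At 500 bp after the start, 73.0% of members lay under a peak in every MiaPaCa2 library, against 74.6% to 76.2% in CFPAC1. At the start itself 61.9% to 66.7% did in MiaPaCa2, against 41.3% to 66.7% in CFPAC1. At 4 kb before the start the share was 57.1% to 63.5% in MiaPaCa2, against 27% to 41.3% in CFPAC1, and 4.48% to 6.38% of all genes in any library. At 4 kb after the start it was 54.0% to 58.7% in MiaPaCa2, against 23.8% to 38.1% in CFPAC1. Neighbouring members stand within these distances, so a flank of one gene is often the promoter of the next.

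**Figure D2:**
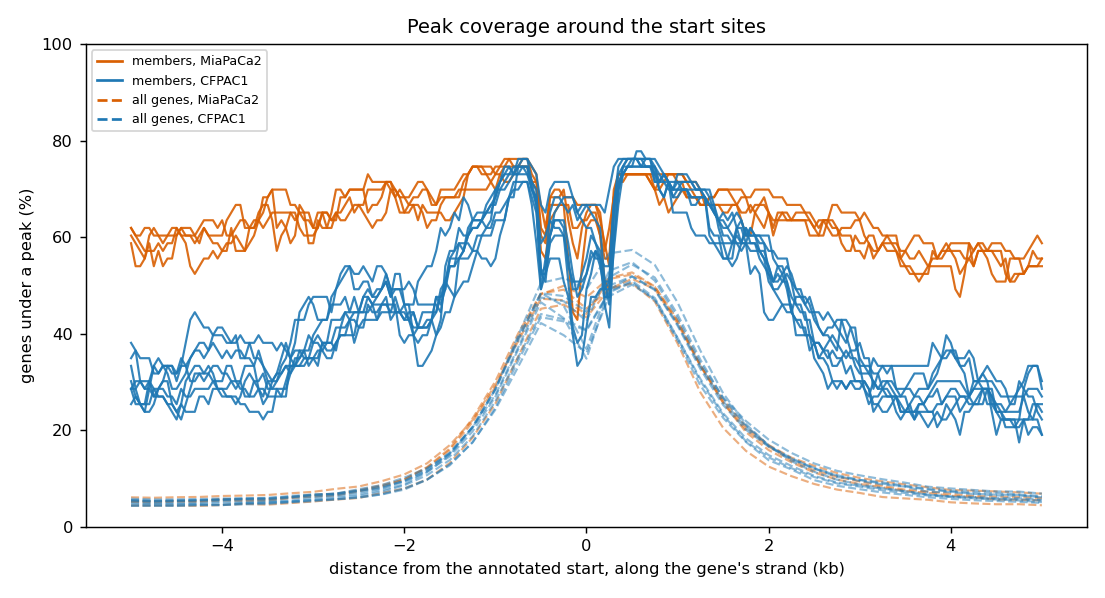
Share (%) of the histone genes with a known strand (solid) and of all genes (dashed) under a peak, by distance from the start (kb, negative before the start), 1 curve per library, MiaPaCa2 in orange and CFPAC1 in blue. The solid MiaPaCa2 curves lie between 57.1% and 63.5% at 4 kb before the start, against 27% to 41.3% in CFPAC1, and all 12 lie at 73.0% to 76.2% at 500 bp after it.

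The widest peaks were wider in MiaPaCa2, over the members and over the whole lists. The widest peak of the whole list was 46526 to 54930 bp in MiaPaCa2, against 19782 to 25229 bp in CFPAC1. The widest peak over any member was 9979 to 22710 bp in MiaPaCa2, against 5123 to 7351 bp in CFPAC1, and 1 peak lay in the windows of up to 6 to 8 members in MiaPaCa2 and of up to 5 in CFPAC1. The median width of peaks in the members' windows did not part the lines (873 to 1454 bp in MiaPaCa2, 818 to 1567 bp in CFPAC1). The fold enrichment of a peak is the authors' own value for that peak. Its highest value over the members was 40.5 to 57.8 in MiaPaCa2 and 26.2 to 40.4 in CFPAC1, and its median 6.61 to 7.64 in MiaPaCa2 and 7.1 to 12.5 in CFPAC1. The folds of different lists rest on each library's own background, so they rank peaks within a library and were not tested across libraries. The member peaks' median fold stood at the 57.7th to 70.7th percentile of its own list in MiaPaCa2 and at the 67.7th to 83.4th in CFPAC1. For peaks within 1 kb the order of the lines turned round, with a median fold of 27.18 in MiaPaCa2 and 15.43 in CFPAC1, beside 6.975 and 9.778 within 5 kb.

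**Figure D3:**
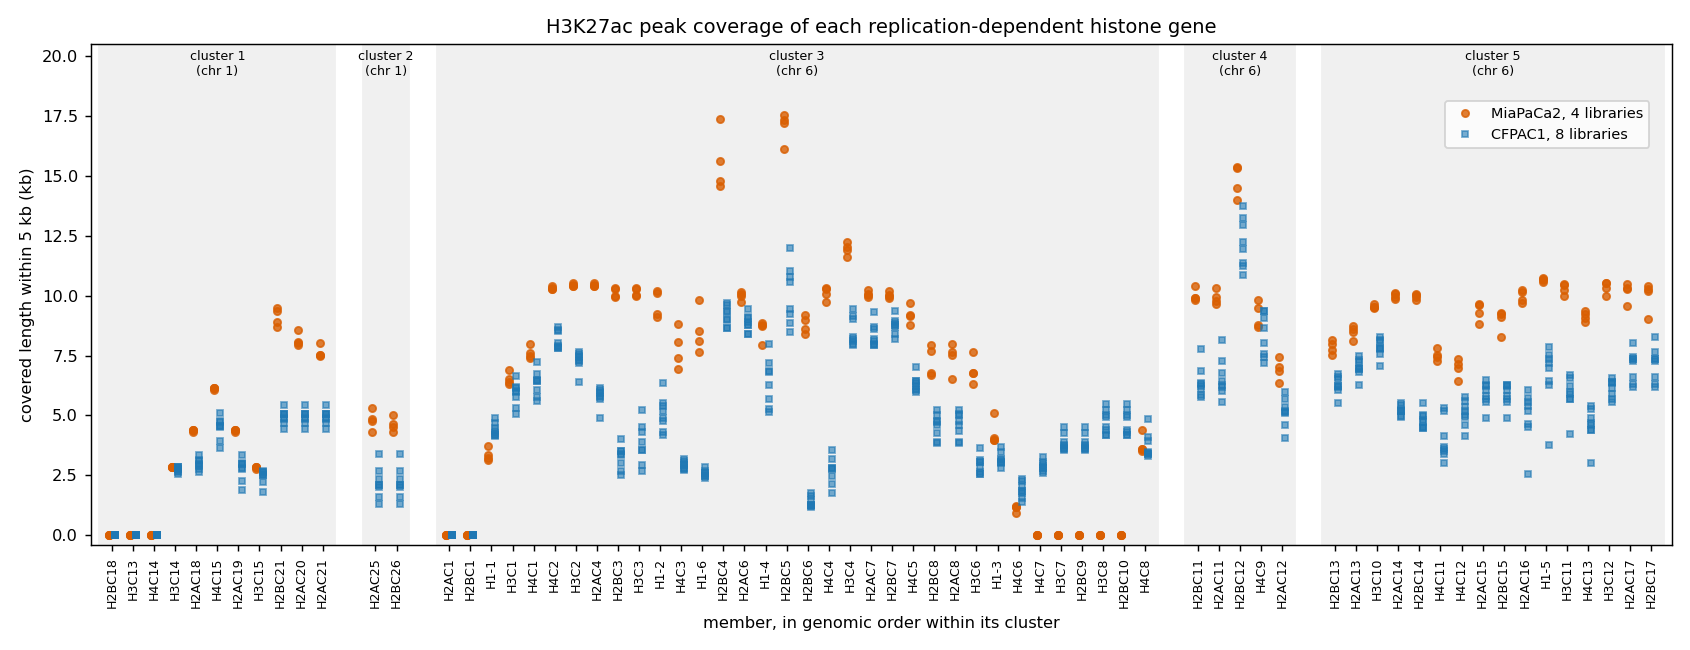
Covered length (kb) within 5 kb of the gene ends for every member, in genomic order within its cluster, 1 point per library, with 4 MiaPaCa2 libraries (orange circles) and 8 CFPAC1 libraries (blue squares). For 51 members all circles lie above all squares, H4C7, H3C7, H2BC9, H3C8 and H2BC10 have circles at 0 and squares above it, and H2BC18, H3C13, H4C14, H2AC1 and H2BC1 are at 0 in all 12.

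Differences between libraries were tested on log2(covered bp + 500) with limma over 15544 genes covered in at least 2 libraries, 63 of them members, and a call needs an adjusted p under 0.05. Changes on this scale understate those of genes with little covered length. In untreated cells 42 members were higher and 6 lower in MiaPaCa2 than in CFPAC1, where 27.7% of all genes were higher and 20.2% lower. In treated cells 48 were higher and 6 lower, where 24.2% of all genes were higher and 18.1% lower. All 42 and all 6 of the untreated calls were also called in treated cells, and none changed direction; the comparisons use different libraries of the same lines. The median change over tested members was 0.47 in untreated and 0.58 in treated cells, beside 0.13 and 0.09 over all genes. In untreated cells quantile normalization gave 24 higher and 7 lower, and no centring 37 and 7. For 51 members all 4 MiaPaCa2 libraries lay above all 8 CFPAC1 libraries, an order that 17.7% of tested genes showed, and for 7 they lay below (17.1%).

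Of the 6 H1 linker histone genes, 2 rose in untreated and 4 in treated MiaPaCa2 relative to CFPAC1, and none fell. Of all genes 27.7% rose and 20.2% fell in untreated cells, and 24.2% and 18.1% in treated cells. H1-6 had 8507 and 9799 bp in treated MiaPaCa2 and 8092 and 7645 bp in untreated MiaPaCa2, against 2402 to 2854 bp (median 2552) in CFPAC1. H1-6 is the testis-specific linker histone, and in both MiaPaCa2 groups it exceeded every CFPAC1 library. Its log2 change was 1.5 ± 0.11 (SE, adjusted p = 3.60e-06) in untreated and 1.68 ± 0.11 (SE, adjusted p = 1.84e-06) in treated cells by limma. Within 1 kb it had 2485 and 2538 bp in treated and 2015 and 1718 bp in untreated MiaPaCa2, against 0 in all 8 CFPAC1 libraries. Its neighbour H4C3 shares its 5 kb window. The peaks within 1 kb of H1-6 had folds of 5.28 and 6.04 in untreated library 1 and 4.22 to 5.82 in untreated library 2. They were 8.42 and 6.4 in treated library 1. The median folds of these whole lists were 4.88, 5.14 and 5.75. In treated library 2 a peak of fold 36.0 that also covers H4C3 reached over H1-6, beside one of 5.53. H1-2 had 9124 and 10088 bp in treated MiaPaCa2 and 9252 and 10188 bp in untreated MiaPaCa2, against 4194 to 6338 bp (median 5032.5) in CFPAC1. H1-2 thus rose by 0.71 untreated and 0.85 treated on the log2 scale. H1-4 and H1-3, also somatic linker histones, were called in treated cells, by 0.55 and 0.49. H1-4 had 8852 and 8759 bp in treated MiaPaCa2 and 7928 and 8734 bp in untreated MiaPaCa2, against 5135 to 7984 bp (median 6546.5) in CFPAC1. H1-3 had 4043 and 5088 bp in treated MiaPaCa2 and 3995 and 3975 bp in untreated MiaPaCa2, against 2806 to 3675 bp (median 3095.5) in CFPAC1. H1-3 had the lowest mean of the class, and its lowest MiaPaCa2 value lay just above its highest CFPAC1 value.

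H1-5 had 10719 and 10699 bp in treated MiaPaCa2 and 10641 and 10567 bp in untreated MiaPaCa2, against 3766 to 7853 bp (median 7094) in CFPAC1. H1-5 had the highest mean covered length of the class, yet its changes of 0.47 untreated and 0.61 treated missed the threshold (adjusted p = 0.106 and 0.0502, limma). H1-1 had 3722 and 3218 bp in treated MiaPaCa2 and 3341 and 3131 bp in untreated MiaPaCa2, against 4130 to 4878 bp (median 4308.5) in CFPAC1. H1-1, another somatic linker histone, was one of the 7 members whose MiaPaCa2 values all lay below CFPAC1, with changes of -0.30 ± 0.12 (SE, adjusted p = 0.0678) untreated and -0.31 ± 0.12 (SE, adjusted p = 0.0681) treated, not called. Near its own ends the contrast was sharper: 416 and 0 bp in treated and 0 and 0 bp in untreated MiaPaCa2, against 1687 to 2217 bp in CFPAC1. Its 5 kb window overlaps those of H3C1, H4C1 and H4C2.

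The H2A calls were all higher. Of 16 tested, 14 rose in untreated (27.7% of all genes) and 15 in treated MiaPaCa2 (24.2%) relative to CFPAC1. None fell (20.2% and 18.1% of all genes). The changes of the 16 ranged from 0.17 to 0.85 untreated and from 0.19 to 1.23 treated. H2AC25 had 4843 and 5312 bp in treated MiaPaCa2 and 4786 and 4314 bp in untreated MiaPaCa2, against 1288 to 3394 bp (median 2096.5) in CFPAC1. H2AC25, of the 2-gene cluster on chromosome 1, had the largest treated change of the class (1.23 ± 0.29 SE, adjusted p = 0.00685). H2AC14 had 9961 and 10089 bp in treated MiaPaCa2 and 10048 and 9845 bp in untreated MiaPaCa2, against 4946 to 5515 bp (median 5183.5) in CFPAC1. H2AC16 had 10151 and 10241 bp in treated MiaPaCa2 and 9799 and 9706 bp in untreated MiaPaCa2, against 2548 to 6063 bp (median 5304) in CFPAC1. H2AC14 and H2AC16 both lie in the last chromosome 6 cluster, and in both every MiaPaCa2 value was above every CFPAC1 value, with untreated changes of 0.84 and 0.72. H2AC4 had 10445 and 10527 bp in treated MiaPaCa2 and 10403 and 10410 bp in untreated MiaPaCa2, against 4883 to 6126 bp (median 5858.5) in CFPAC1. H2AC20 had 8012 and 8554 bp in treated MiaPaCa2 and 8052 and 7956 bp in untreated MiaPaCa2, against 4444 to 5429 bp (median 4974.5) in CFPAC1. H2AC21 had 7461 and 8003 bp in treated MiaPaCa2 and 7501 and 7515 bp in untreated MiaPaCa2, against 4444 to 5429 bp (median 4974.5) in CFPAC1. H2AC4 filled almost its whole window in MiaPaCa2. H2AC8 had 6510 and 7963 bp in treated MiaPaCa2 and 7631 and 7531 bp in untreated MiaPaCa2, against 3849 to 5226 bp (median 4687) in CFPAC1. H2AC15 had 9280 and 9603 bp in treated MiaPaCa2 and 8805 and 9665 bp in untreated MiaPaCa2, against 4905 to 6486 bp (median 5928.5) in CFPAC1. H2AC17 had 9573 and 10487 bp in treated MiaPaCa2 and 10302 and 10267 bp in untreated MiaPaCa2, against 6206 to 8028 bp (median 7313.5) in CFPAC1. These 6 core histone genes were called in both line comparisons, by 0.49 (H2AC17) to 0.76 (H2AC4) in untreated cells.

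A further 5 H2A genes rose in both comparisons. H2AC11 had 9930 and 10332 bp in treated MiaPaCa2 and 9649 and 9755 bp in untreated MiaPaCa2, against 5550 to 8146 bp (median 6352.5) in CFPAC1. H2AC12 had 6340 and 7029 bp in treated MiaPaCa2 and 7433 and 6855 bp in untreated MiaPaCa2, against 4056 to 5977 bp (median 5173.5) in CFPAC1. H2AC13 had 8476 and 8612 bp in treated MiaPaCa2 and 8719 and 8124 bp in untreated MiaPaCa2, against 6251 to 7462 bp (median 6962.5) in CFPAC1. These 3 stand in the same runs as their H2B partners and were called in both comparisons. H2AC18 had 4400 and 4399 bp in treated MiaPaCa2 and 4391 and 4326 bp in untreated MiaPaCa2, against 2659 to 3363 bp (median 2958.5) in CFPAC1. H2AC19 had 4404 and 4399 bp in treated MiaPaCa2 and 4399 and 4297 bp in untreated MiaPaCa2, against 1896 to 3363 bp (median 2901) in CFPAC1. H2AC18 and H2AC19 are the chromosome 1 copies whose bases before the start were identical, and their ranges overlap in both lines. H2AC7 had 9957 and 10241 bp in treated MiaPaCa2 and 10047 and 10029 bp in untreated MiaPaCa2, against 7941 to 9303 bp (median 8138.5) in CFPAC1. H2AC7 was called in treated cells alone (0.29 ± 0.09 SE, adjusted p = 0.0304); the untreated change was 0.19. H2AC6 had 9999 and 10063 bp in treated MiaPaCa2 and 9728 and 10144 bp in untreated MiaPaCa2, against 8398 to 9433 bp (median 8833) in CFPAC1. H2AC6 had the highest mean of the class, and its lowest MiaPaCa2 value lay just above its highest CFPAC1 value, with changes of 0.17 and 0.19 that were not called. The class's lowest, H2AC1, was at 0 in every library.

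H2B genes held the single largest rise, in H2BC6, and 2 of the falls. Of 16 tested, 12 rose and 2 fell in untreated MiaPaCa2 relative to CFPAC1 (27.7% and 20.2% of all genes). In treated cells 13 rose and 2 fell (24.2% and 18.1%). H2BC6 had 8413 and 9177 bp in treated MiaPaCa2 and 9001 and 8598 bp in untreated MiaPaCa2, against 1197 to 1775 bp (median 1252.5) in CFPAC1. H2BC6 (chr6:26183761-26184230) had the largest rise of all members: 2.45 ± 0.16 (SE, adjusted p = 1.71e-06) in untreated and 2.41 ± 0.16 (SE, adjusted p = 2.10e-06) in treated cells. Within 1 kb it had 2333 and 2374 bp in treated and 2355 and 2370 bp in untreated MiaPaCa2, against 372 bp in IRF1KO clone 2 and 0 in the other 7 CFPAC1 libraries. H2BC3 had 10292 and 10305 bp in treated MiaPaCa2 and 9990 and 9931 bp in untreated MiaPaCa2, against 2505 to 4023 bp (median 3364.5) in CFPAC1. H2BC3 rose by 1.35 untreated and 1.53 treated, and the groups of libraries do not overlap. H2BC14 had 9953 and 10081 bp in treated MiaPaCa2 and 10040 and 9837 bp in untreated MiaPaCa2, against 4461 to 5507 bp (median 4777.5) in CFPAC1. H2BC21 had 9355 and 9462 bp in treated MiaPaCa2 and 8903 and 8676 bp in untreated MiaPaCa2, against 4444 to 5429 bp (median 4974.5) in CFPAC1. H2BC26 had 4522 and 4998 bp in treated MiaPaCa2 and 4628 and 4314 bp in untreated MiaPaCa2, against 1288 to 3394 bp (median 2096.5) in CFPAC1. H2BC14 and H2BC21 passed the test with log2 changes of 0.90 and 0.80 untreated, and H2BC26, partner of H2AC25, with 0.83.

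A further 7 H2B genes rose in both comparisons. H2BC4 had 15629 and 17388 bp in treated MiaPaCa2 and 14581 and 14794 bp in untreated MiaPaCa2, against 8644 to 9679 bp (median 9150.5) in CFPAC1. H2BC5 had 17317 and 17549 bp in treated MiaPaCa2 and 16114 and 17218 bp in untreated MiaPaCa2, against 8495 to 11983 bp (median 10010.5) in CFPAC1. H2BC4 and H2BC5 have long gene models in RefSeq, so the areas around their ends do not merge and their windows reach 20002 bp. H2BC8 had 6668 and 7931 bp in treated MiaPaCa2 and 7685 and 6782 bp in untreated MiaPaCa2, against 3849 to 5226 bp (median 4672.5) in CFPAC1. H2BC11 had 9917 and 10383 bp in treated MiaPaCa2 and 9833 and 9919 bp in untreated MiaPaCa2, against 5766 to 7761 bp (median 6270.5) in CFPAC1. H2BC15 had 9284 and 9097 bp in treated MiaPaCa2 and 8288 and 9218 bp in untreated MiaPaCa2, against 4905 to 6284 bp (median 5928.5) in CFPAC1. All 3 are partners in a divergent pair with an H2A gene. H2BC17 had 9032 and 10404 bp in treated MiaPaCa2 and 10282 and 10205 bp in untreated MiaPaCa2, against 6206 to 8268 bp (median 7313.5) in CFPAC1. H2BC13 had 7738 and 8154 bp in treated MiaPaCa2 and 7981 and 7515 bp in untreated MiaPaCa2, against 5513 to 6724 bp (median 6224.5) in CFPAC1. Their untreated changes ran from 0.33 (H2BC13) to 0.66 (H2BC8). H2BC12 had 13981 and 15351 bp in treated MiaPaCa2 and 15313 and 14479 bp in untreated MiaPaCa2, against 10844 to 13751 bp (median 12098) in CFPAC1. H2BC12 had the highest mean of the class, over a window of 18566 bp, and was called in treated cells alone (0.29 ± 0.10 SE, adjusted p = 0.0418; 0.21 untreated). H2BC7 had 9920 and 10204 bp in treated MiaPaCa2 and 10010 and 9992 bp in untreated MiaPaCa2, against 8205 to 9347 bp (median 8771) in CFPAC1. H2BC7 was not called in either (0.17 and 0.19).

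H2BC10 had 0 and 0 bp in treated MiaPaCa2 and 0 and 0 bp in untreated MiaPaCa2, against 4184 to 5494 bp (median 4663.5) in CFPAC1. H2BC9 had 0 and 0 bp in treated MiaPaCa2 and 0 and 0 bp in untreated MiaPaCa2, against 3554 to 4525 bp (median 3754.5) in CFPAC1. Both core histone genes had a peak in every CFPAC1 library and none in MiaPaCa2. Their log2 changes were -3.39 for H2BC10 and -3.13 for H2BC9 in untreated MiaPaCa2 relative to CFPAC1. These sizes depend on the added 500 bp, since 1 side is listed at 0. H2BC18 and H2BC1, of which H2BC1 is the testis H2B, were at 0 in all 12 libraries.

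Of 12 H3 genes tested, 7 rose and 2 fell in MiaPaCa2 relative to CFPAC1, in untreated and in treated cells alike. The all-gene shares were 27.7% and 20.2% untreated and 24.2% and 18.1% treated. H3C3 had 10291 and 10304 bp in treated MiaPaCa2 and 9989 and 10012 bp in untreated MiaPaCa2, against 2675 to 5238 bp (median 3724.5) in CFPAC1. H3C3, next to H2BC3, rose by 1.00 ± 0.10 (SE, adjusted p = 3.78e-05) untreated and 1.39 ± 0.10 (SE, adjusted p = 4.40e-06) treated. H3C6 had 6757 and 7654 bp in treated MiaPaCa2 and 6328 and 6765 bp in untreated MiaPaCa2, against 2535 to 3632 bp (median 2947.5) in CFPAC1. H3C11 had 10425 and 10502 bp in treated MiaPaCa2 and 10249 and 10004 bp in untreated MiaPaCa2, against 4243 to 6679 bp (median 5945) in CFPAC1. H3C12 had 10512 and 10512 bp in treated MiaPaCa2 and 10327 and 9970 bp in untreated MiaPaCa2, against 5552 to 6554 bp (median 6251.5) in CFPAC1. These 3 H3 genes rose by 0.91, 0.65 and 0.67 in untreated cells. H3C2 had 10429 and 10511 bp in treated MiaPaCa2 and 10387 and 10394 bp in untreated MiaPaCa2, against 6386 to 7629 bp (median 7361.5) in CFPAC1. H3C10 had 9468 and 9633 bp in treated MiaPaCa2 and 9523 and 9527 bp in untreated MiaPaCa2, against 7066 to 8282 bp (median 7811) in CFPAC1. H3C2 was covered over nearly its whole window in MiaPaCa2. H3C4 had 11607 and 12241 bp in treated MiaPaCa2 and 12047 and 11914 bp in untreated MiaPaCa2, against 7951 to 9444 bp (median 8229) in CFPAC1. H3C4 had the highest mean covered length among H3 genes, over a window of 12510 bp, against 10486 bp for H3C10. H3C1 had 6893 and 6389 bp in treated MiaPaCa2 and 6512 and 6302 bp in untreated MiaPaCa2, against 5070 to 6649 bp (median 5997) in CFPAC1. H3C14 had 2858 and 2857 bp in treated MiaPaCa2 and 2849 and 2856 bp in untreated MiaPaCa2, against 2563 to 2862 bp (median 2780) in CFPAC1. H3C15 had 2857 and 2852 bp in treated MiaPaCa2 and 2852 and 2750 bp in untreated MiaPaCa2, against 1801 to 2700 bp (median 2543.5) in CFPAC1. H3C14 and H3C15, which code for H3.2 on chromosome 1, had no peak within 1 kb in any library. The untreated changes of H3C1 (0.11), H3C14 (0.05) and H3C15 (0.12) were not called.

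H3C8 had 0 and 0 bp in treated MiaPaCa2 and 0 and 0 bp in untreated MiaPaCa2, against 4184 to 5494 bp (median 4735.5) in CFPAC1. H3C7 had 0 and 0 bp in treated MiaPaCa2 and 0 and 0 bp in untreated MiaPaCa2, against 3554 to 4525 bp (median 3754.5) in CFPAC1. The log2 changes were -3.42 for H3C8 and -3.13 for H3C7 in untreated MiaPaCa2 relative to CFPAC1, and the change of H3C8 was the largest of all tested members. H3C7 and H2BC9, whose windows overlap, have the same values in every library. Near its ends, H3C8 had 1798 to 2496 bp in CFPAC1. The class's lowest, H3C13, was at 0 in every library.

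H4 genes nearly all code for the same protein from many copies. Of 13 tested, 7 rose and 2 fell in untreated MiaPaCa2 relative to CFPAC1 (27.7% and 20.2% of all genes). In treated cells 9 rose and 2 fell (24.2% and 18.1%). H4C4 had 9751 and 10307 bp in treated MiaPaCa2 and 10288 and 10074 bp in untreated MiaPaCa2, against 1778 to 3553 bp (median 2779.5) in CFPAC1. H4C4 changed by 1.65 ± 0.15 (SE, adjusted p = 1.87e-05) in untreated and 2.08 ± 0.15 (SE, adjusted p = 4.09e-06) in treated cells. H4C3 had 7397 and 8800 bp in treated MiaPaCa2 and 8063 and 6922 bp in untreated MiaPaCa2, against 2726 to 3188 bp (median 2933.5) in CFPAC1. H4C13 had 9221 and 9345 bp in treated MiaPaCa2 and 9079 and 8919 bp in untreated MiaPaCa2, against 3003 to 5376 bp (median 4642) in CFPAC1. H4C3 and H4C13 rose by 1.2 and 0.79 untreated. H4C11 had 7538 and 7823 bp in treated MiaPaCa2 and 7456 and 7286 bp in untreated MiaPaCa2, against 3026 to 5297 bp (median 3634) in CFPAC1. In H4C11 the treated difference was 1.07 ± 0.10 (SE, adjusted p = 2.54e-05) and the untreated 0.49 ± 0.10 (SE, adjusted p = 0.00331). All 4 MiaPaCa2 values of H4C11 lay above its CFPAC1 values. H4C5 had 8791 and 9137 bp in treated MiaPaCa2 and 9701 and 9189 bp in untreated MiaPaCa2, against 5967 to 7040 bp (median 6298.5) in CFPAC1. H4C15 had 6138 and 6137 bp in treated MiaPaCa2 and 6129 and 6064 bp in untreated MiaPaCa2, against 3630 to 5099 bp (median 4552.5) in CFPAC1. H4C5 and H4C15 rose by 0.49 and 0.32 in untreated cells, and H4C2 by 0.28. H4C15 has a gene model of 16753 bp on the minus strand. Its covered bp lay around the end away from its start, beside H2AC18, with none within 1 kb of the start. H4C2 had 10306 and 10388 bp in treated MiaPaCa2 and 10264 and 10271 bp in untreated MiaPaCa2, against 7819 to 8697 bp (median 7979) in CFPAC1. H4C2 had the highest mean of the class. H4C1 had 7985 and 7481 bp in treated MiaPaCa2 and 7604 and 7394 bp in untreated MiaPaCa2, against 5610 to 7232 bp (median 6434.5) in CFPAC1. H4C12 had 6999 and 7359 bp in treated MiaPaCa2 and 7163 and 6442 bp in untreated MiaPaCa2, against 4121 to 5755 bp (median 5095) in CFPAC1. H4C1 and H4C12 were called in treated cells alone, by 0.34 and 0.58. H4C9 had 8703 and 9799 bp in treated MiaPaCa2 and 9464 and 8766 bp in untreated MiaPaCa2, against 7180 to 9368 bp (median 8349.5) in CFPAC1. H4C8 had 3611 and 4409 bp in treated MiaPaCa2 and 3502 and 3593 bp in untreated MiaPaCa2, against 3289 to 4865 bp (median 3449) in CFPAC1. H4C9 and H4C8, the member with its own window, had overlapping values in the lines and were not called.

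H4C7 had 0 and 0 bp in treated MiaPaCa2 and 0 and 0 bp in untreated MiaPaCa2, against 2607 to 3245 bp (median 2857.5) in CFPAC1. H4C6 had 913 and 1233 bp in treated MiaPaCa2 and 1195 and 1190 bp in untreated MiaPaCa2, against 1399 to 2364 bp (median 1854.5) in CFPAC1. H4C7, which codes for the divergent H4 protein known as H4G, changed by -2.82 and H4C6 by -0.70 in untreated MiaPaCa2 relative to CFPAC1. Neither line had a peak within 1 kb of H4C7, so its covered bp in CFPAC1 lay in the flanks. H4C6 had none within 1 kb in MiaPaCa2, against 826 to 1574 bp in CFPAC1. The lowest of the class, H4C14, was at 0 in every library.

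Within 1 kb, fewer members differed. Of 60 tested, 9 rose and 7 fell in untreated MiaPaCa2 relative to CFPAC1, where 17.1% and 14.1% of all genes were called, and 11 rose and 6 fell in treated cells (15.2% and 12.8%). The 9 were H2BC21, H3C1, H2BC3, H4C3, H1-6, H2BC4, H2BC6, H2AC14 and H2BC14, and the 7 were H1-1, H4C6, H3C7, H2BC9, H3C8, H2BC10 and H4C9. In this window H2BC6 changed by 2.50, H1-6 by 2.22 and H2BC14 by 1.21, and H3C7 by -2.58, H3C8 by -2.54 and H1-1 by -2.23 in untreated cells. For 15 members all MiaPaCa2 values lay above all CFPAC1 values, where 15.7% of tested genes showed this order, and for 6 below (11.3%).

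**Figure D4:**
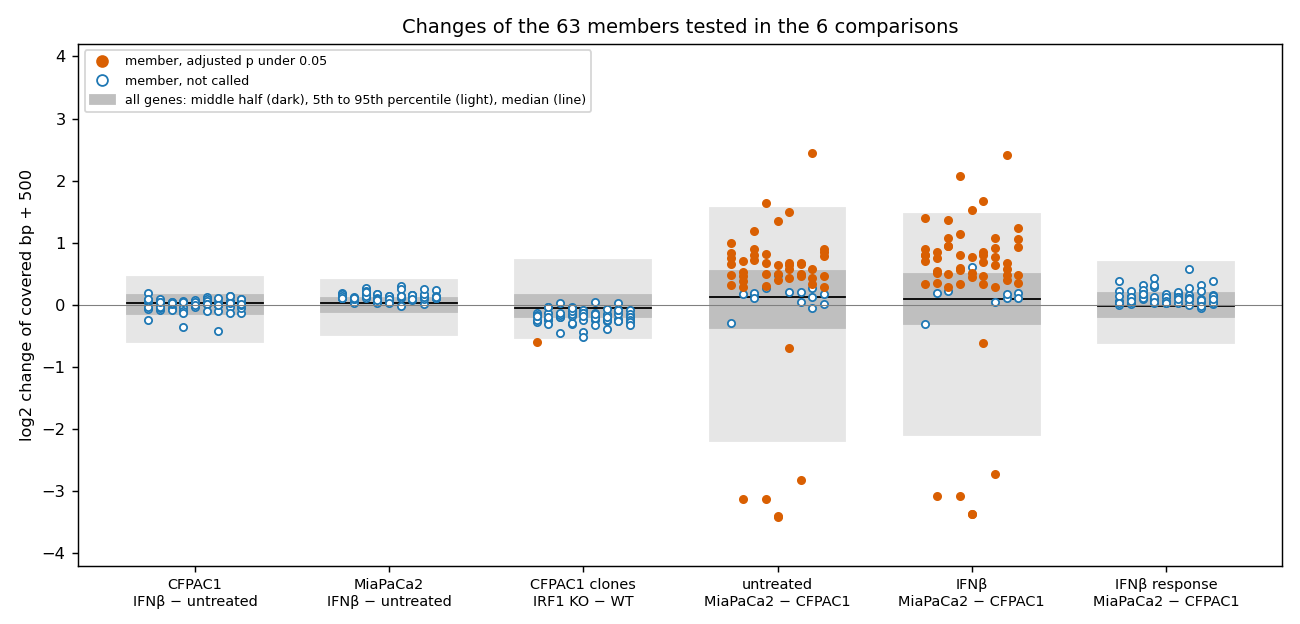
Log2 change of covered bp + 500 (5 kb window) of each of the 63 tested members in each of the 6 comparisons, filled orange where the adjusted p was under 0.05 and open blue otherwise. Grey boxes show all genes tested, with the middle 50% dark, the 5th to 95th percentile light and the median as a line. In the line comparisons most points lie above 0 with 5 members at -2.72 or lower, while in IFNβ-treated against untreated cells all lie between -0.42 and 0.30 and in the IRF1KO comparison between -0.60 and 0.04.

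The map covers 278.5 kb, from 5 kb before H1-1 to 5 kb after H4C8, with 32 members. MiaPaCa2 libraries covered 50.6% to 54.6% of it with 69 to 96 peaks, the widest of 9.8 to 22.7 kb, and CFPAC1 libraries 29.5% to 35.2% with 42 to 74 peaks, the widest of 4.8 to 7.4 kb. From H1-1 to H1-2, where 9 members stand in 49.4 kb, 80.8% to 83.1% was covered in MiaPaCa2, against 42.1% to 52.6% in CFPAC1. From H2BC6 to H4C5, with 6 members in 31.3 kb, 86.8% to 93.0% was covered in MiaPaCa2, against 41.0% to 49.0% in CFPAC1. The strongest peak within 5 kb of H4C2 and of H3C2 had a fold of 37.3 to 55.7 in MiaPaCa2. It lay at or above the 99.5th percentile of its list in every MiaPaCa2 library. Within 5 kb of H4C2 the strongest peak had a fold of 15.7 to 30.2 in CFPAC1. Such a peak need not overlap the gene named. The peak of fold 30.2, in WT clone 1, lay at 3.261 to 6.347 kb on the map, and H4C2 at 9.864 to 10.251 kb.

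Within the same cluster a stretch of 45.1 kb had the reverse pattern. Along chr6:26236966-26282094 no MiaPaCa2 library had a peak, while the 8 CFPAC1 libraries had 7 to 12 peaks over 8956 to 10579 bp there. It holds the bodies of 6 members (H4C6, H4C7, H3C7, H2BC9, H3C8 and H2BC10) and no other protein-coding gene of the table. H4C7, H3C7, H2BC9, H3C8 and H2BC10 were at 0 in all 4 MiaPaCa2 libraries and covered in all 8 CFPAC1 libraries, which 5.39% of tested genes were. No member had the opposite pattern within 5 kb, which 1.13% of tested genes had. On either side, at H1-3 and H4C8, both lines were covered: the strongest peak at H4C8 had a fold of 29.3 to 53.5 in MiaPaCa2 and of 15.6 to 23.6 in CFPAC1.

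**Figure D5:**
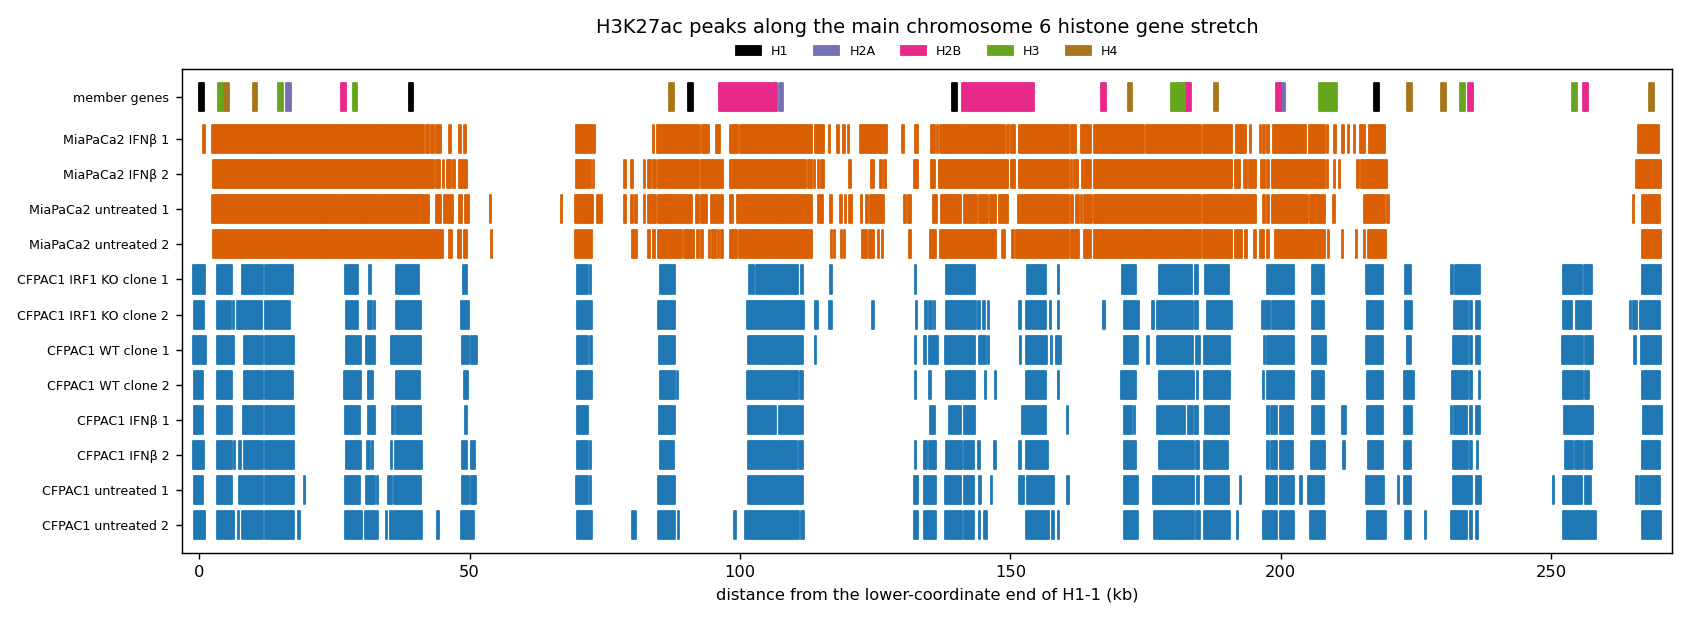
Peaks of the 12 libraries (bars) along the main chromosome 6 stretch, by distance from the lower-coordinate end of H1-1 (kb), 1 row per library with MiaPaCa2 (orange) above CFPAC1 (blue) and the members drawn on top, coloured by class. MiaPaCa2 rows are filled over 50.6% to 54.6% and CFPAC1 rows over 29.5% to 35.2%, and the 45.1 kb stretch near the right end is empty in the MiaPaCa2 rows alone.

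A pair of places held members without a peak in any library. H2BC18, H3C13 and H4C14, of the chromosome 1 cluster, lie in a stretch of 1440.5 kb at chr1:148402882-149843346 without a peak in any of the 12 libraries, which also holds the bodies of H3C14 and H2AC18 and 14 other genes of the table, among them NBPF14, NOTCH2NLB and FCGR1A. The bases before the start of H4C14 were identical to those of H4C15, whose start had no peak within 1 kb either. How the authors treated reads that fit more than 1 copy is not given in the sources used here. H2AC1 and H2BC1, the testis pair, lie in a stretch of 297.7 kb at chr6:25601937-25899638 without peaks and with 5 other genes, SLC17A1, SLC17A3 and SLC17A4 among them. Of the 3 testis members, H1-6 was the one with a peak within 1 kb, in MiaPaCa2 libraries alone. Its peaks had the mostly low folds given above, except in treated library 2, where the peak also covers H4C3.

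IFNβ for 2 h changed no member past the threshold in either line. In CFPAC1, limma called 0 of 63 members (0.888% of all genes were called), and 3 members had an unadjusted p under 0.05. The largest differences were in H4C11, with 3026 and 3684 bp in treated and 5177 and 5297 bp in untreated CFPAC1 (-0.42 ± 0.10 SE, adjusted p = 0.107). H4C4 had 1778 and 2149 bp in treated and 3197 and 2799 bp in untreated CFPAC1 (-0.35 ± 0.15 SE, adjusted p = 0.433). H3C3 had 3570 and 3544 bp in treated and 4512 and 5238 bp in untreated CFPAC1 (-0.25 ± 0.10 SE, adjusted p = 0.41). In each of the 3 both treated values lay below both untreated values, but the adjusted p did not pass. Within 1 kb the centred changes of H4C11 and H3C3 were 0.06 and 0.09, though their covered bp were not higher in treated cells. There H4C11 had 1994 and 1935 bp in treated and 2036 and 2016 bp in untreated CFPAC1. H3C3 had 2185 and 2486 bp in treated and 2191 and 2486 bp in untreated CFPAC1. Over the members the median change was 0.02, with 38 of 63 above 0, beside 0.04 and 56.1% over all genes. Without centring 1 of 63 was above 0 (23.1% of all genes), so the sign of these small changes differed with the scaling.

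In MiaPaCa2, limma again called 0 of 63 members (0.611% of all genes), with 3 at an unadjusted p under 0.05. H1-6 had 8507 and 9799 bp in treated and 8092 and 7645 bp in untreated MiaPaCa2 (0.30 ± 0.11 SE, adjusted p = 0.443). H1-3 had 4043 and 5088 bp in treated and 3995 and 3975 bp in untreated MiaPaCa2 (0.27 ± 0.10 SE, adjusted p = 0.5). H2BC4 had 15629 and 17388 bp in treated and 14581 and 14794 bp in untreated MiaPaCa2 (0.26 ± 0.10 SE, adjusted p = 0.474). All 3 had both treated values above both untreated values. The changes of 62 of 63 members were above 0, with a median of 0.12 beside 0.03 over all genes (56.3% above 0); without centring the median was 0.019 with 49 of 63 above 0, and the all-gene median -0.068. Neighbouring members share peaks, so these are few independent values, and no test over the members was made.

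The difference between the lines' responses, MiaPaCa2 minus CFPAC1, called 0 of 63 members by limma (0.0386% of all genes), with 3 at an unadjusted p under 0.05. It was largest in H4C11 (0.58 ± 0.15 SE, adjusted p = 0.334), H4C4 (0.43 ± 0.22 SE, adjusted p = 0.747) and H3C3 (0.39 ± 0.15 SE, adjusted p = 0.558). Its median was 0.11 over members and -0.02 over all genes. It is built from the same libraries as the IFNβ and line comparisons above and adds no independent values.

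In the IRF1KO clones 1 member fell relative to the WT clones. H3C3 had 2675 and 2931 bp in IRF1KO clones, against 4312 and 3879 bp in WT clones, a change of -0.60 ± 0.10 (SE, adjusted p = 0.0343) by limma, where 0.431% of all genes were called lower and 0.978% in either direction. The 2 IRF1KO values lie below both WT values, and the bulk CFPAC1 libraries had 3570 and 3544 bp treated and 4512 and 5238 bp untreated. H2BC3, its neighbour, which shares the window, had 2671 and 2505 bp in IRF1KO clones, against 3526 and 3533 bp in WT clones (-0.51 ± 0.11 SE, adjusted p = 0.0695). The H3C3 call did not hold in every fit: its adjusted p was 0.477 in a fit of these 4 libraries alone, 0.0862 and 0.145 without WT clone 1 or 2, and 0.102 without IRF1KO clone 2. It was 0.062 without centring and 0.052 with the replicate block. With the 10 kb window, where H3C3 had an adjusted p of 0.0574, the single member called was H2BC3 in place of H3C3.

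The third largest difference was in H2AC16, with 5578 and 2548 bp in IRF1KO clones and 5195 and 4629 bp in WT clones (-0.46 ± 0.25 SE, adjusted p = 0.442). IRF1KO clone 2 alone was low there; without it the change was 0.04. H1-5, beside it, had 7368 and 3766 bp in IRF1KO clones and 6985 and 6419 bp in WT clones, with the same clone low. When IRF1KO clone 1 was left out, 5 members were called lower: H3C3, H2AC16, H1-5, H3C11 and H4C13, the last 4 from 1 stretch of 18.2 kb that was covered over 52.3% and 30.5% in IRF1KO clones 1 and 2 and over 48.2% and 47.6% in WT clones. IRF1KO clone 2 also had the most peaks of all libraries (109834). In all, 3 of 63 members had a change above 0, with a median of -0.19, beside 42.8% and -0.05 over all genes; without centring 14 of 63 were above 0, with a median of -0.063, beside 64.4% and 0.079. By class the medians were -0.21 (H1), -0.19 (H2A), -0.19 (H2B), -0.18 (H3) and -0.18 (H4).

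Other genes of the pathway were followed in 3 lists and by place. Of 28 regulators of replication-dependent histone genes, 27 were tested, and in untreated cells 12 rose and 1 fell in MiaPaCa2 relative to CFPAC1 (27.7% and 20.2% of all genes). The rises, as log2 changes, were in E2F2 (1.46), E2F1 (0.95) and E2F3 (0.38), which activate S-phase genes; CCNE1 (1.28), cyclin E; LSM10 (1.43), of the U7 snRNP that cuts histone pre-mRNA; SYMPK (0.81), CPSF3 (0.41) and CPSF2 (0.32), of the cleavage complex; UPF1 (0.88), of histone mRNA decay; and YY1 (0.65), NFYC (0.53) and NFYA (0.35), promoter-binding factors. ERI1, the nuclease that trims the histone stem-loop, fell by 0.88 on the log2 scale. In treated cells 6 rose and none fell (24.2% and 18.1%): CCNE1 (1.40), LSM10 (1.05), E2F2 (1.01), E2F1 (0.95), CDC25A (0.71) and CPSF2 (0.37). E2F2 had 3031 and 3598 bp in treated and 5791 and 4335 bp in untreated MiaPaCa2, against 1213 and 1508 bp in treated and 1274 and 1868 bp in untreated CFPAC1. NPAT, HINFP, SLBP and POU2F1 were not called in either. The 12 untreated rises became 4 and 6 without untreated CFPAC1 library 1 or 2, 8 and 7 without untreated MiaPaCa2 library 1 or 2, 4 within 1 kb, 7 without centring, 5 with quantile normalization and 8 in a fit of the compared libraries alone. The 6 treated rises became 2 and 3 without treated CFPAC1 library 1 or 2, 2 without treated MiaPaCa2 library 2, 2 within 1 kb and 3 without centring.

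Of 24 histone variants and related genes elsewhere, 13 were tested. In untreated MiaPaCa2 relative to CFPAC1, 2 rose and 2 fell, where 27.7% and 20.2% of all genes did. In treated cells 3 rose and 1 fell (24.2% and 18.1% of all genes). H3-3B, which codes for the replacement histone H3.3, changed by -0.94 untreated and by -0.92 treated. MACROH2A2 fell by 0.87 untreated, and H2AZ2 (0.71) and H1-10 (0.44) rose; in treated cells CENPA (0.75), H2AZ2 (0.69) and H1-10 (0.40) rose. Of 26 DNA replication genes 12 rose and 2 fell in untreated MiaPaCa2 (27.7% and 20.2% of all genes). In treated MiaPaCa2 9 rose and 2 fell (24.2% and 18.1%). The untreated rises ran from MCM7 (0.38), of the replicative helicase, to RFC3 (1.41), of the clamp loader; the falls were in CDC6 (-1.29), a licensing factor, and UHRF1 (-0.72), which keeps DNA methylation through replication. In treated cells the falls were in CDC6 (-1.49) and CHAF1B (-1.26), a histone chaperone subunit. Called replication genes, 14 untreated and 11 treated, became 8 without untreated CFPAC1 library 1, 9 without untreated MiaPaCa2 library 2 and 6 to 8 without any 1 of the treated libraries, and 4 and 2 within 1 kb. Called variants, 4 in each, became 1 without CFPAC1 library 1, untreated or treated, 2 without treated CFPAC1 library 2, 1 without treated MiaPaCa2 library 2, and 2 and 2 within 1 kb. List medians were 0.35 untreated and 0.28 treated for regulators, 0.16 and 0.04 for variants and 0.40 and 0.27 for replication genes.

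No list gene was called by limma in the IFNβ, IRF1KO or response-difference comparisons. At an unadjusted p under 0.05 there were, in CFPAC1 treated against untreated, 1 regulator, 0 variants and 4 replication genes, and in MiaPaCa2 0, 2 and 2. In IRF1KO against WT clones there were 3, 0 and 1, and in the difference of responses 0, 0 and 1. Among regulators the largest difference in CFPAC1 was in LSM10 (0.44 ± 0.22 SE, adjusted p = 0.536), and in the clones in ERI1, with 5584 and 2626 bp in IRF1KO clones and 6702 and 7877 bp in WT clones (-0.96 ± 0.27 SE, adjusted p = 0.148).

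Of 8 other protein-coding genes inside the clusters, 2 had any covered bp. HFE, the iron regulator in the main chromosome 6 cluster, had 4856 and 6645 bp in treated and 8277 and 5637 bp in untreated MiaPaCa2, against 3428 and 3439 bp in treated and 3894 and 4526 bp in untreated CFPAC1, a change of 0.68 ± 0.16 (SE, adjusted p = 0.00545) untreated. TRIM38 had 5061 and 5264 bp in treated and 5106 and 4909 bp in untreated MiaPaCa2, against 4607 and 4316 bp in treated and 3970 and 3967 bp in untreated CFPAC1, a change of 0.33 ± 0.12 (SE, adjusted p = 0.0483) untreated. It was not called in treated against untreated CFPAC1 (0.31 ± 0.12 SE, adjusted p = 0.386). The other 6, FCGR1A and 4 SLC17A genes among them, were at 0 in all 12 libraries.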

How the data were processed

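H3K27ac ChIP-seq peaks were analysed in 12 libraries, 2 per group. Per the submitters' processing notes, reads were trimmed with Trimmomatic 0.38 and aligned with Bowtie2 2.2.6 to GRCh38, SAMtools was used, and MACS2 2.1.0.20150731 made the peak lists; control, filters and depth are not given in the sources used here. Each deposited list belongs to 1 library. The deposited fold enrichment is the authors' value for a peak, the deposited −log10 p and −log10 q values are those of the peak caller, and the deposited score is a rescaled −log10 q. In the alternative settings −log10 p served only to rank peaks and −log10 q only to filter them, and the score was not used.

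From these lists, the bp under peaks within 5 kb of either gene end were computed for 19974 RefSeq protein-coding genes (Python 3.11.15, numpy 2.4.6, pandas 2.3.3). Values were taken as log2(bp + 500), centred on each library's mean, and tested with limma 3.58.1 (R 4.3.3) in 1 model over 6 groups with a trended prior, for 15544 genes covered in at least 2 libraries. P-values were adjusted by Benjamini and Hochberg over all genes, with calls at an adjusted p under 0.05. The limma fit was tested on simulated data. Members called in any comparison were described with their values, as were the highest and lowest of each class and the 3 members with the largest change per comparison. The members and lists were chosen with earlier results of these data known. The labels name 2 instruments without assigning libraries to them, so no batch could be tested. Alternatives were windows of 1 and 10 kb, the larger end alone, a peak over the gene itself, a pseudocount of 100 bp, no filter, stricter peaks, equal peak numbers, no centring, quantile normalization, a replicate block, fits of the compared libraries alone and leaving out each library.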

Additional observations from a re-analysis of the deposited data

How the results depend on the processing

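The 42 and 48 rises and the 6 and 6 falls between the lines depended most on the window. With the 10 kb window, the lower pseudocount of 100 bp, the stricter peaks (-log10 q of at least 5), an equal number of peaks per library, the larger end alone or no filter, counts of called members stayed within 1.5 times those reported. Within 1 kb, 16 members were called in untreated and 17 in treated MiaPaCa2 against CFPAC1, beside 48 and 54 within 5 kb; called genes in all numbered 4454 and 3994, beside 7446 and 6574. Quantile normalization left 31 members in untreated cells. Leaving out 1 library gave 36 to 39 members and 5528 to 6453 genes in untreated cells, and 41 to 52 members and 4667 to 5104 genes in treated cells. On the centred log2 scale, single members changed sign within 1 kb without being called there. In untreated cells these were H1-2, H3C10, H3C11, H4C15 and H4C2 at -0.021, H2AC18 at -0.0067, H2AC19 at -0.029, H2AC21 at -0.0075, H2BC8 at -0.062, H3C4 at -0.037, H4C11 at -0.026. In treated cells they were H1-2, H3C10, H3C11, H4C2 and H4C5 at -0.075, H1-3 at -0.055, H2AC15 and H2BC15 at -0.058, H2AC17 at -0.010, H2AC18 at -0.045, H2AC19 at -0.054, H2BC17 at -0.0099, H2BC8 at -0.0014, H4C1 at -0.072, H4C11 at -0.023, H4C12 at -0.096, H4C13 at -0.026, H4C15 at -0.030; under quantile normalization H2BC12 stood at -0.037. In treated against untreated CFPAC1 H4C11 (0.060) and H3C3 (0.094) changed sign within 1 kb, and in the difference of responses H3C3 (-0.052). Such a sign need not be that of the covered bp. Within 1 kb H1-2, H3C10 and H4C2 had 2731, 2486 and 2388 bp in every library, so centring alone set their sign. H4C11, negative in treated cells, had 2054 and 2055 bp in treated MiaPaCa2, against 1994 and 1935 bp in treated CFPAC1.

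The IRF1KO call of 1 member became 0 without centring, with the replicate block and in a fit of those 4 libraries alone, and was 0 to 5 when 1 library was left out. All called genes there numbered 152, and 234 without the filter, 73 with the replicate block, 0 in the fit of 4 libraries and 19 to 702 without 1 library. H2AC16 ranged from -0.95 without IRF1KO clone 1 to 0.044 without IRF1KO clone 2. For IFNβ in CFPAC1, 138 genes were called, 72 in the fit of those libraries alone and 2 to 53 without 1 library; in MiaPaCa2 95, with 56 within 1 kb, 41 in those libraries alone and 30 to 291 without 1 library. The difference of responses called 6 genes, with 12 within 1 kb, 18 at the lower pseudocount, 31 without the filter, 10 with stricter peaks, 11 without centring, 21 with quantile normalization, 11 in those libraries alone and 0 to 16 without 1 library. No member was called in any IFNβ comparison under any alternative run.

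Of the gene lists, called replication genes numbered 14 untreated and 11 treated between the lines, with 4 and 2 within 1 kb and 8 to 11 and 6 to 8 without 1 library. Called variants numbered 4 and 4, with 2 and 2 within 1 kb, 7 untreated at 10 kb, and 1 to 4 and 1 to 3 without 1 library. Called regulators numbered 13 and 6, with 5 and 2 within 1 kb, 8 and 3 without centring, 6 untreated with quantile normalization, and 4 to 8 and 2 to 5 without 1 library. Without 1 library, 0 to 2 replication genes and 0 to 3 regulators were called in the clones, and 0 to 1 replication gene in treated MiaPaCa2.

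The median covered length per member was 8261 bp in MiaPaCa2 and 4872 bp in CFPAC1, and 2351 and 2032 bp within 1 kb, 13950 and 7648 bp within 10 kb, and 7807 bp in MiaPaCa2 with stricter peaks. The median peak width was 893.5 bp in MiaPaCa2 and 1136 bp in CFPAC1. It was 2942 and 1850 bp within 1 kb, 1638 and 1562 bp with stricter peaks, and 1187 and 1604 bp with equal numbers of peaks, so the order of the lines differed between settings. The median fold was 6.975 in MiaPaCa2 and 9.778 in CFPAC1, 27.18 and 15.43 within 1 kb, 6.063 in MiaPaCa2 within 10 kb, 8.942 and 13.57 with stricter peaks, and 7.794 and 13.9 with equal numbers. A peak that overlaps the gene itself was found for 76.47% of members in MiaPaCa2 and 79.41% in CFPAC1, beside 79.41% and 85.29% within 1 kb. The cause of these shifts was not tested.

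The labels do not say whether a replicate number marks a common culture or day, and the numbers were used as names only. Same-numbered libraries' deviations correlated at 0.215 (IFNβ, CFPAC1), -0.0703 (IFNβ, MiaPaCa2), -0.0733 (clones), 0.186 (lines, untreated) and 0.062 (lines, treated). With the replicate block 47 members were called in untreated and 54 in treated MiaPaCa2 against CFPAC1. Peak lists give no read depth, so a peak missed at low depth cannot be told apart from one that is absent, and 2 libraries a group leave 6 residual degrees of freedom.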
